A study of Mus musculus with 8 samples.

Results

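Mouse embryonic fibroblasts (MEF) were compared with mouse embryonic stem (ES) cells across all measured genes. The comparison used 5 of the study's 8 arrays, 2 of MEF and 3 of ES cells, and the other 3 arrays held neural precursor cells (NPC). Its members were the 34945 of 45037 non-control probe sets that are annotated to 1 gene, and the brightest one stood for each of 18193 genes. All cells were labelled wild type. The ES cells were of the murine V6.5 line, cultured with LIF and serum on irradiated MEF feeders and then passaged on gelatin without them before RNA was taken. The MEF were primary fibroblasts kept in serum with antibiotics. The NPC had been derived from ES cells through embryoid bodies and a selection in ITSFn, and were grown with FGF2 and EGF. Separate cultures are not named in the labels, and the p-values therefore reflect array-to-array spread, which may be technical. In such bulk RNA, fewer cells of a type and less RNA per cell cannot be told apart.

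Fibroblasts are the cells that build connective tissue: they secrete fibrillar collagens, crosslink and digest them, and pull on the resulting matrix through actin bundles that end in integrin adhesions. They also keep a memory of where in the body they came from in the set of Hox and limb or trunk transcription factors that they express. ES cells grow as compact colonies joined by epithelial cadherin, hold the factors of the early epiblast, and respond to LIF, Nodal and FGF signals. A comparison of the pair therefore spans pluripotency and epithelial against mesenchymal organisation. Genes of the cell cycle were read as well.

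Values are log2(signal + 16) after quantile normalization, so that a signal of 0 reads 4 and folds of dim genes are understated. As deposited, the MEF arrays were brighter, with 2% trimmed means of 233 against 111 to 153 on the ES arrays. After normalization, arrays correlated at 0.986 to 0.989 within ES and at 0.992 within MEF. NPC 1 stood apart, at 0.967 and 0.969 with the other NPC arrays, which correlated at 0.987 with each other. Since all arrays share 1 estimate of the spread per gene, the SE of a MEF minus ES difference can carry spread among NPC arrays. With so few arrays, the SE of each difference is itself uncertain.

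The labels were first checked against the markers of both cell types. Col1a1, a chain of type I collagen, read 5.98, 6.39 and 6.08 on the ES arrays and 12.97 and 13.02 on the MEF arrays. Col3a1, the chain of type III collagen, read 5.59, 5.65 and 5.76 in ES and 12.64 and 12.65 in MEF, a 126-fold difference (limma adjusted p = 6.88e-07). Thy1, a surface glycoprotein of fibroblasts, read 6.14, 5.76 and 6.24 in ES against 11.37 and 11.27 in MEF. All 3 were high on every MEF array, and their groups lay far apart. Pou5f1, the pluripotency factor also called Oct4, read 11.95, 11.99 and 12.08 in ES and 4.05 and 4.89 in MEF. Tdgf1, a co-receptor for Nodal, read 12.65, 12.72 and 12.63 in ES and 4.03 and 4.26 in MEF, 367-fold lower (limma adjusted p = 2.01e-09). Both were at or just above the bottom of the scale in MEF, and the arrays match their labels by these markers.

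**Figure D1:**
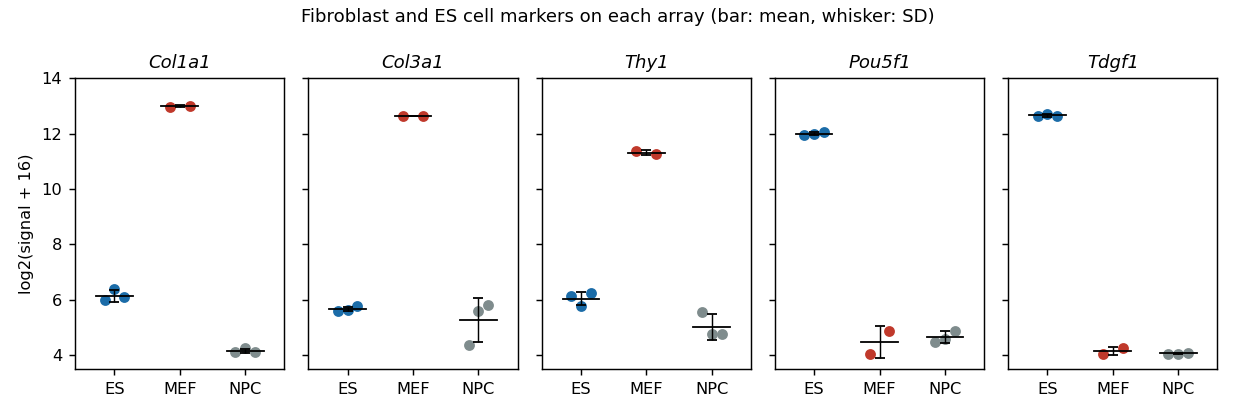
Level of 5 marker genes on each array, as log2(signal + 16), for ES (3 arrays), MEF (2) and NPC (3). Points are arrays, bars are group means and whiskers are SD. The MEF arrays are at 11.27 or above for Col1a1, Col3a1 and Thy1, and at 4.89 or below for Pou5f1 and Tdgf1.

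A gene was called at a limma adjusted p under 0.05 and a difference of at least 2-fold. By this rule 4554 of 18193 genes (25%) differed, 2227 higher in MEF (12.2%) and 2327 lower (12.8%), and the median difference of all genes was -0.04. The gene list counts below are to be read beside these shares. The MEF and ES arrays did not overlap for 12329 genes (67.8%), so a lack of overlap alone says little here. The directions differed by size of change: a minimum of 4-fold was reached by 879 higher and 681 lower genes, and at 16-fold the counts were 138 and 103. At the far end the order turned, with 10 genes at least 64-fold higher and 21 lower, and at 128-fold 0 higher and 5 lower, namely Tdgf1, Dppa5a, Pou5f1, Zfp42 and L1td1. The balance of directions depends on the scaling, as 79.3% of calls were higher in MEF at the deposited scaling and 65.1% with median centring, against 48.9% here. The deposited scaling also moved the median difference of all genes to 0.32.

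The NPC arrays show which differences also separate fibroblasts from another cell type that has left pluripotency. MEF and NPC differed at 3359 genes (18.5%), 1912 higher (10.5%) and 1447 lower (7.95%) in MEF. Of the 2227 genes higher in MEF than in ES cells, 1132 (50.8%) were higher than in NPC too, which is 6.22% of all genes, and 130 (5.84%) were lower than in NPC. Of the 2327 genes lower in MEF than in ES cells, 461 (19.8%) were lower than in NPC too, which is 2.53% of all genes, and 1719 (73.9%) did not differ from NPC by the rule. Both contrasts use the same MEF arrays, so these shares are a description.

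**Figure D2:**
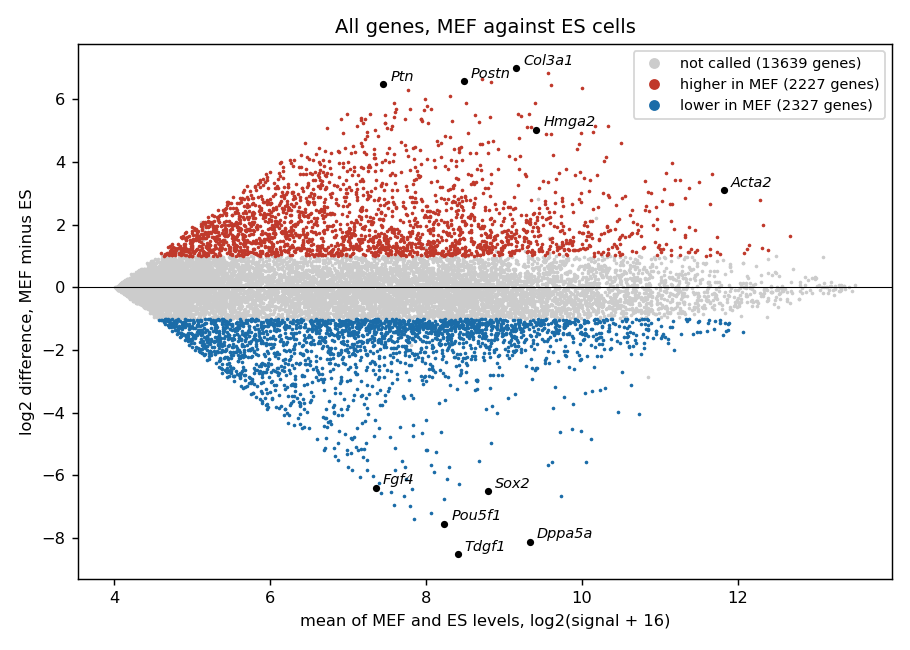
Log2 difference between MEF and ES (y) against the mean of both levels as log2(signal + 16) (x) for all 18193 genes, with 2227 higher genes in red, 2327 lower genes in blue and the rest in grey. The lower genes reach -8.52 (Tdgf1) and the higher genes 6.98 (Col3a1).

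Beyond collagens, the 15 largest rises held genes of matrix, adhesion and growth signals. Cdh11, a cadherin of mesenchyme, read 5.35, 5.68 and 5.19 in ES and 11.99 and 12.09 in MEF. Tm4sf1, a tetraspanin-like surface protein, read 5.14, 5.66 and 5.88 against 12.14 and 12.10. Ptn, the secreted growth factor pleiotrophin, read 4.08, 4.52 and 4.06 against 10.68 and 10.69, 88.3-fold higher, and was higher still in NPC, with a MEF minus NPC difference that was also called. In these 3 genes the ES arrays were at 5.88 or below and every MEF array above 10. Among the 15 largest falls, several are outside the known pluripotency circuit. Trap1a, a tumour rejection antigen gene, fell from 11.19, 11.02 and 10.96 in ES to 4.10 and 4.14. Chchd10, a mitochondrial protein gene, fell from 13.08, 13.10 and 13.02 to 6.57 and 6.25. Phlda2, an imprinted gene that restrains placental growth, fell from 10.87, 10.81 and 10.75 to 4.41 and 4.16. Mymx, which encodes a small membrane protein of myoblast fusion, fell from 11.18, 11.12 and 10.81 to 4.71 and 4.49. These 4 were 86.7-fold to 122-fold lower in MEF.

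**Figure D3:**
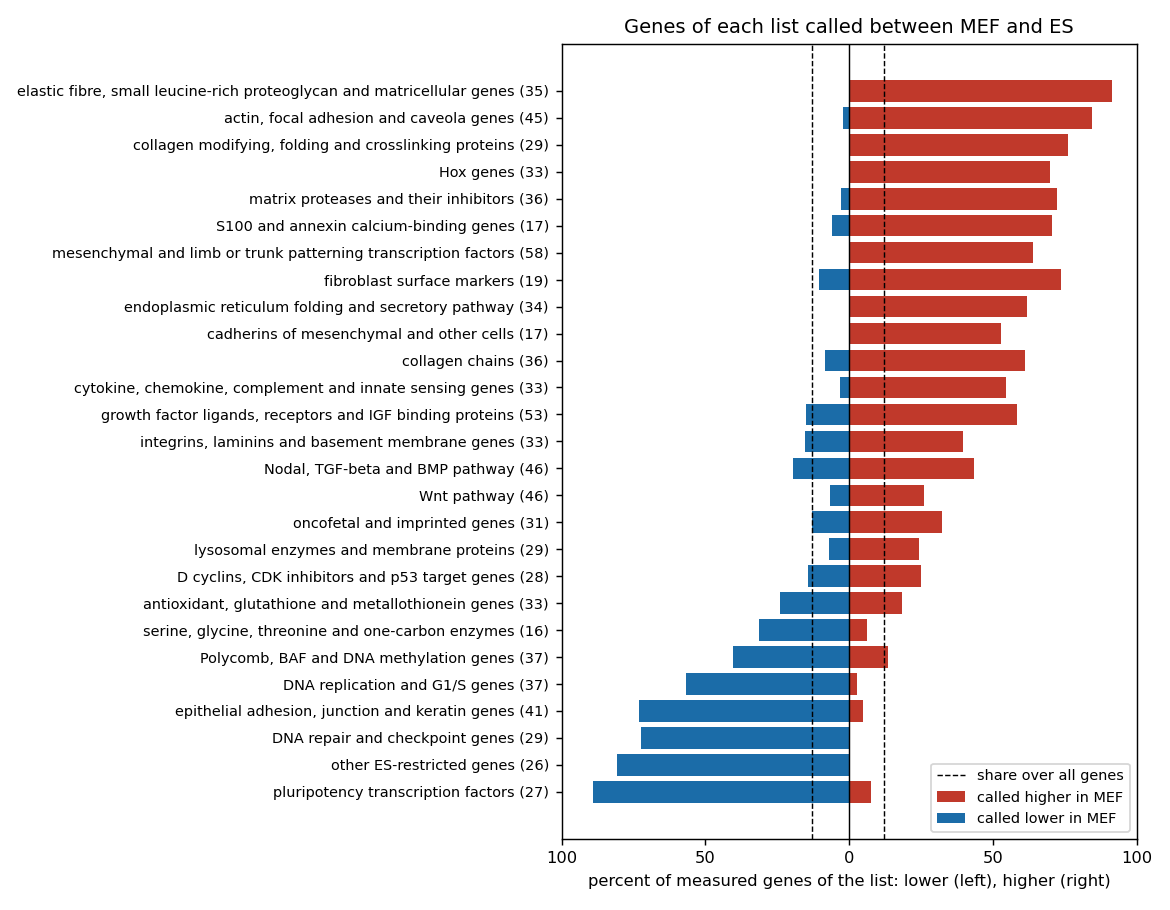
Percent of the measured genes of each list that were called higher (red, right) or lower (blue, left) in MEF, with the number measured in brackets and dashed lines at the shares over all genes (12.2% and 12.8%). Matrix, actin and Hox lists lie to the right, and pluripotency, epithelial, DNA repair and replication lists to the left.

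Collagen chains were higher in 22 of 36 measured genes and lower in 3 (median log2 difference 2.30). The highest rises were in the fibril-forming chains and their partners: Col5a2, which nucleates fibrils of types I and III, read 6.30, 6.65 and 6.22 in ES and 12.87 and 12.77 in MEF, and Col6a1, of the beaded filaments around cells, read 5.09, 5.26 and 5.01 against 10.89 and 10.90. They were 86.4-fold and 54.9-fold higher and did not overlap with the ES arrays. The basement membrane chains Col4a1, Col4a2 and Col4a5 (chosen after their values were seen) rose by log2 differences of 2.83, 2.40 and 3.78, and the ES arrays already read 8.97 to 9.25 for Col4a1. Col18a1, a basement membrane collagen, went the other way, from 9.29, 9.23 and 9.46 in ES to 7.85 and 7.81 (limma adjusted p = 0.000426), a call that ended at the deposited scaling (-0.70). Col13a1 and Col9a2 were also lower, at -1.84 and -1.21, and both calls ended with a pseudocount of 64 (-0.86 and -0.44). Of the 22 higher chains, 20 were higher than in NPC as well.

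Proteins that fold, modify and crosslink collagen were called higher by limma in 22 of 29 genes and lower in none (median 1.70), with 0 lower at an unadjusted p under 0.05. Lox, a lysyl oxidase that starts crosslinking, read 8.10, 8.07 and 8.45 in ES and 12.84 and 12.76 in MEF, 24.1-fold higher. Its relatives Loxl1 and Loxl3 rose 26.8-fold and 16.8-fold. Serpinh1, the collagen chaperone of the endoplasmic reticulum, read 9.59, 9.65 and 9.42 against 12.97 and 12.95, and Bmp1, the protease that trims the procollagen end, rose 12.5-fold. Hydroxylases moved less: Plod1 and Plod2, which hydroxylate lysine, had log2 differences of 0.59 and 0.75 and were not called. Both passed under median centring (1.09 and 1.24) and the deposited scaling (1.41 and 1.56).

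Elastic fibre, small proteoglycan and matricellular genes were called higher by limma in 32 of 35 members and lower in none (0 at an unadjusted p under 0.05), and their median of 3.35 was the highest of the lists with at least 15 measured genes. Postn, periostin, which ties collagen to crosslinking enzymes, read 5.39, 4.96 and 5.25 in ES and 11.71 and 11.82 in MEF, 94.8-fold higher. Fbln5, needed for elastic fibre assembly, read 4.81, 4.80 and 4.30 against 10.90 and 10.92. Ccn4, a matricellular protein, read 5.17, 5.32 and 5.33 against 11.30 and 11.41. The MEF arrays differed from each other by at most 0.12 in these genes. Thbs2 and Tnc, an inhibitor of vessel growth and a glycoprotein of remodelling tissue, rose 59.0-fold and 58.8-fold, and Tnc was high in NPC as well (mean 11.1) while Thbs2 was not (4.6). Podn, Fbln1 and Prelp were not called, at 0.15, 0.42 and 0.48, although Fbln1 passed at the deposited scaling (1.25) and without probe sets of shared sequence (1.44).

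Matrix proteases and their inhibitors rose together. Of 36 measured genes, 26 were higher and 1 lower (median 2.03), led by Adam12, a metalloprotease of mesenchyme that was 44.9-fold higher, and Serpinf1, a secreted antiangiogenic serpin that was 29.7-fold higher. Mmp14, the membrane protease that activates other collagenases, read 6.90, 7.14 and 6.15 in ES and 11.09 and 11.17 in MEF. Its inhibitor Timp2 (chosen after its values were seen) read 7.99, 8.10 and 8.33 against 11.84 and 11.78, 12.7-fold higher, and Timp3 rose 15.9-fold, with an SE of 0.68 that was 0.19 without NPC 1. Mmp11 was the lower gene at -1.05, and that call ended under median centring (-0.64), the deposited scaling (-0.32), with a pseudocount of 64 (-0.81), with the replicate block (-0.99) and without ES 3 or MEF 1 (-0.97 each).

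Secreted proteases whose genes lie close together on chromosome 9 were among the risers, and they are described because of that position, chosen after their values were seen. Mmp13, a collagenase, read 4.37, 4.07 and 4.09 in ES and 7.57 and 7.70 in MEF. Mmp3, the broad stromelysin, read 4.69, 4.68 and 4.84 against 7.55 and 7.72. Mmp10, its close relative, read 4.48, 4.68 and 4.45 against 6.50 and 6.57. The ES arrays were all near the floor of the scale. Mmp13 rose by 3.46 on the log2 scale, and Mmp3 and Mmp10 rose 7.44-fold and 4.00-fold. Mmp12 and Mmp8 rose 4.98-fold and 4.18-fold, and the calls of Mmp10 and Mmp8 ended with a pseudocount of 64 (0.99 and 0.89). The NPC arrays were near the floor for all 5, at 5.05 or below.

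The 250 bases before the start of Mmp13, Mmp3 and Mmp10 are shown because each holds 1 copy of TGANTCA, the site known to bind the AP-1 factors Fos and Jun, marked in capitals (RefSeq, GRCm38.p6, read 5′ to 3′ on the plus strand). They span chr9:7272264-7272513, chr9:7445572-7445821 and chr9:7502092-7502341, and the copies begin 35, 46 and 63 bases before the start.
Mmp13: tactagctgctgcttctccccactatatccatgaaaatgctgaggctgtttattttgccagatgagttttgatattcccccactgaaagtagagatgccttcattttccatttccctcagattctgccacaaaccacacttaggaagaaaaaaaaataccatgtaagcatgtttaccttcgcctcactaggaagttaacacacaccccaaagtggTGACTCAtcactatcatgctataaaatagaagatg
Mmp3: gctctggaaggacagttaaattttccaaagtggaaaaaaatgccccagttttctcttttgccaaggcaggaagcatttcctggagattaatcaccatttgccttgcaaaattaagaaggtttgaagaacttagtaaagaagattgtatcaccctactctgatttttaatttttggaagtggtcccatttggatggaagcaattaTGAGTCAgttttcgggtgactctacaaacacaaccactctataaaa
Mmp10: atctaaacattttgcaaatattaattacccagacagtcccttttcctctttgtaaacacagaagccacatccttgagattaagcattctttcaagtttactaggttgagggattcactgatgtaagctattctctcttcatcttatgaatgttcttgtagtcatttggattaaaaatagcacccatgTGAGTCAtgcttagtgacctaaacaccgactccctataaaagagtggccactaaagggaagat
The motif was searched on both strands. It was in 6.75% of the 32851 promoter windows of that length and in 6 of 22 windows (27.3%) of the proteases and inhibitors higher in MEF, with Mmp12, Plaur and Adam19 as the other genes. These 22 windows belong to 18 of the 26 higher genes. Of the other chromosome 9 genes named above, Mmp8 held 0 copies, and Mmp12 held 1 before 1 start and 0 before another. A match is a description of the letters and no evidence of binding.

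Integrins, laminins and basement membrane genes were higher in 13 of 33 members (39.4%) and lower in 5 (15.2%), with a median of 0.53. Over all genes the shares were 12.2% and 12.8%, so the lower share was near that of all genes. The receptor side rose: Itga5, the fibronectin receptor subunit, read 6.63, 6.84 and 6.72 in ES and 10.02 and 9.95 in MEF, and its partner Itgb1 read 8.70, 8.90 and 8.99 against 11.84 and 11.79. Itgav and Itgb5, which pair to bind vitronectin, rose 6.18-fold and 5.86-fold. Laminin alpha chains exchanged. Lama1, the chain of early embryonic basement membranes, fell from 9.29, 9.20 and 9.38 to 5.60 and 5.72, while Lama4, of mesenchyme and vessels, rose from 4.39, 4.11 and 4.25 to 8.16 and 8.03. Nid2 and Lama5 fell 3.92-fold and 3.17-fold, and 3 of the list were lower with a pseudocount of 64. The shared chain Lamc1 was at 9.37, 9.32 and 9.52 in ES and 9.26 and 9.31 in MEF and was not called (limma adjusted p = 0.38).

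Actin, focal adhesion and caveola genes were higher in 38 of 45 members and lower in 1 (median 2.66), and 37 of the 38 were higher than in NPC. Actg2, a smooth muscle actin, read 5.67, 5.61 and 5.47 in ES and 11.45 on each MEF array. Cav1, the coat protein of caveolae, read 6.52, 6.54 and 6.59 against 12.09 and 12.08, with Cavin2 28.5-fold higher. Myl9, a regulatory light chain of contractile myosin, read 7.56, 7.85 and 7.63 against 12.25 on each MEF array, 23.7-fold higher. Vcl, vinculin of focal adhesions (chosen after its values were seen), read 9.66, 9.57 and 9.79 against 12.23 on each. No ES array came near the MEF arrays in these genes. Cnn3, Pxn and Actn4 were not called at 0.36, 0.33 and 0.97. Actn4 was called under median centring (1.41), the deposited scaling (1.73), with the replicate block (1.02) and without ES 3 (1.02), and Pxn at the deposited scaling (1.14). Csrp2 was lower at -1.23, and its call ended under median centring (-0.74) and the deposited scaling (-0.41).

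The promoters of Myl9 and Vcl hold a CArG box, the site known to bind serum response factor, in capitals below (RefSeq, GRCm38.p6, plus strand, chr2:156775214-156775463 and chr14:20929148-20929397). The boxes begin 161 and 227 bases before the start.
Myl9: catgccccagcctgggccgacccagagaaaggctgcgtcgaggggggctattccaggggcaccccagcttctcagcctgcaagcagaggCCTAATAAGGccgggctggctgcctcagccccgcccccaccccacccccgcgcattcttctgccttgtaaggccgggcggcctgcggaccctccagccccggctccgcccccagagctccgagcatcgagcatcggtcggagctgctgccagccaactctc
Vcl: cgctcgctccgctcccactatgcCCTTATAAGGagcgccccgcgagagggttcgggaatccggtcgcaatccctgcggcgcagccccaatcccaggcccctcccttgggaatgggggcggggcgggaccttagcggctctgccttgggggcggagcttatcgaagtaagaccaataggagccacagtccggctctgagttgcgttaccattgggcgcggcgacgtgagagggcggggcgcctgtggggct
A CArG box, searched on both strands, was in 1.47% of the 32851 windows and in 2.01% of the 2286 windows of all genes higher in MEF. It was in 8 of 44 windows (18.2%) of the actin, adhesion and caveola genes higher in MEF, which belong to 7 of 33 genes. These 33 are the ones of the 38 higher genes that had a window. The AP-1 motif was in 4 of those 44 windows (9.09%). Members of the list that were not called were not searched as a set. Here too a match describes the letters and is no evidence of binding.

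Transcription factors of mesenchyme, limb and trunk were called higher by limma in 37 of 58 members and lower in none (median 1.57; 2 lower at an unadjusted p under 0.05), 18 of them also higher than in NPC. Prrx1, a homeobox factor of limb mesenchyme, read 5.31, 4.78 and 4.87 in ES and 11.01 and 10.96 in MEF. Snai2, a repressor of epithelial genes, read 5.05, 5.31 and 5.39 against 10.61 and 10.62, and Twist2 read 4.13, 4.26 and 5.25 against 9.73 and 9.64. Nfix, of the nuclear factor I family, rose 51.1-fold but did not differ between MEF and NPC by the rule, whereas Prrx1, Snai2 and Twist2 did. Factors of particular regions of the embryo were also among the higher genes (chosen after their values were seen): Tbx15 and Tbx18, of limb and trunk mesenchyme, rose 12.1-fold and 7.84-fold, and Meox1, of the somites, 4.83-fold. Wt1, of the body cavity lining, was not called at 0.42, nor were Msx2 at 0.98, Gata2 at 0.96 and Tcf4 at 0.88. Each of the last 3 passed at the deposited scaling (1.52, 1.70 and 1.71) and without some single arrays, namely Msx2 without ES 2 or MEF 2 (1.10 and 1.05), Gata2 without ES 3 or MEF 1 (1.17 and 1.02) and Tcf4 without MEF 1 (1.03).

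Hox genes were called higher by limma in 23 of 33 measured members and lower in none (median 1.69; 0 lower at an unadjusted p under 0.05), and 19 of these were also higher than in NPC. With a pseudocount of 64 the count was 12, since most Hox signals were low in both groups. In the Hoxd cluster the end of the cluster stood out: Hoxd13, the most distal limb gene, read 4.12, 4.26 and 4.81 in ES and 8.55 on each MEF array, and Hoxd10 read 4.48, 4.19 and 4.11 against 6.79 and 7.11. Between them, Hoxd11 and Hoxd12 rose 2.99-fold and 2.38-fold and lost their calls with a pseudocount of 64 (0.78 and 0.46). At the other end, Hoxd1 and Hoxd3 were not called, at -0.05 and 0.30, while Hoxd8 rose by 2.09 and Hoxd9, at 1.43 with an SE of 0.61, was not called except, among the left-out arrays, without NPC 1.

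The Hoxc cluster rose from Hoxc5 to Hoxc10. Hoxc8 read 4.12, 4.52 and 4.51 in ES and 7.55 and 7.58 in MEF, Hoxc9 4.78, 4.38 and 4.61 against 6.88 and 7.04, and Hoxc10 4.90, 4.32 and 4.68 against 6.95 and 7.19. Hoxc6 and Hoxc5 rose by 1.92 and 2.07, the latter at 0.96 and not called with a pseudocount of 64, and Hoxc13 was level at 0.01. In the Hoxb cluster Hoxb2 and Hoxb3 led, at 5.46-fold and 5.22-fold, and Hoxb4, Hoxb5, Hoxb6 and Hoxb9 rose by 1.24 to 2.14. Those 4 calls ended with a pseudocount of 64 (0.54 to 0.98). Hoxb1, Hoxb7 and Hoxb13 were at 0.12, 0.28 and 0.27. In the Hoxa cluster Hoxa11 read 5.12, 4.91 and 4.83 in ES and 7.76 and 7.87 in MEF, and Hoxa9 rose 3.22-fold. Hoxa10 rose most, by 3.71, yet this value was -0.06 when probe sets of shared sequence were left out. Hoxa13 rose by 1.36 (0.59 with a pseudocount of 64), and Hoxa2, Hoxa4 and Hoxa7 were not called at 0.90, 0.39 and 0.64, although Hoxa2 was called without ES 2 or MEF 2 (1.10 without the latter). Hoxa5 and Hoxa3 rose by 1.70 and 1.02, and both were lower in MEF than in NPC. Hoxa5 lost its call with a pseudocount of 64 (0.99) and the mean of probe sets (0.94), and Hoxa3 at 0.44 with a pseudocount of 64 and without ES 1, ES 3 or MEF 1 (0.98, 0.98 and 0.95). Hoxc4 rose by 2.36 with an SE of 0.86 (limma adjusted p = 0.049) and lost its call with a pseudocount of 64 (1.13) and without any one of the ES or MEF arrays (2.22 to 2.41), while its SE was 0.15 without NPC 1.

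**Figure D4:**
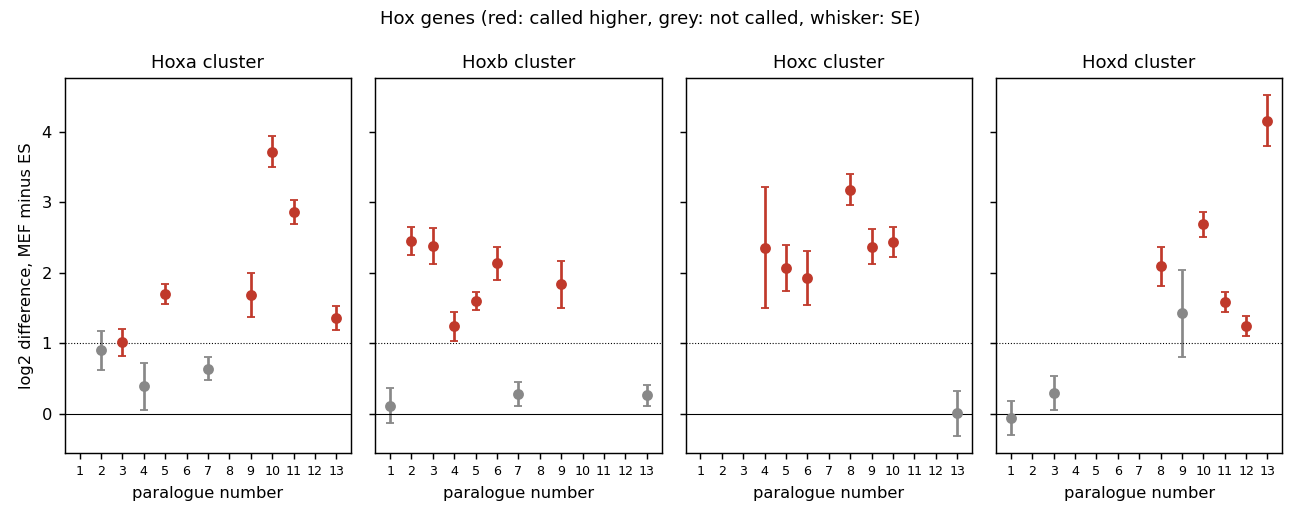
Log2 difference between MEF and ES for the 33 measured Hox genes by cluster (panels) and paralogue number (x axis), with SE as whiskers, red for called higher and grey for not called. Paralogues 8 to 13 hold the highest values of the a, c and d clusters, with Hoxd13 at 4.15, and the Hoxa10 point of 3.71 is -0.06 without probe sets of shared sequence.

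Growth factor ligands, receptors and IGF binding proteins were higher in 31 of 53 members (58.5%) and lower in 8 (15.1%, near the 12.8% of all genes). Their median was 1.61. Ligands first: Igf2, the fetal growth factor, read 7.57, 7.57 and 7.83 in ES and 12.60 and 12.64 in MEF, 31.2-fold higher. Fgf4, the autocrine FGF of the epiblast, read 10.48, 10.43 and 10.73 in ES and 4.27 and 4.06 in MEF, and Fgf17 and Fgf1 fell 7.15-fold and 4.47-fold. Of the receptors, Pdgfrb, through which PDGF drives mesenchymal growth, read 5.45, 5.54 and 5.25 against 10.64 and 10.63. Axl, the receptor for Gas6, read 5.96, 6.04 and 6.35 against 11.50 and 11.57, Nrp1, a co-receptor of VEGF and semaphorins, rose 48.2-fold, and Osmr, the oncostatin M receptor, 33.2-fold. Kit, the stem cell factor receptor, fell from 8.81, 8.74 and 8.81 to 4.76 and 4.47. Of the binding proteins, Igfbp2 fell 15.8-fold, from 12.43, 12.50 and 12.44 to 8.49 and 8.46, and it was high in NPC (mean 12.6). Pdgfa, Vegfc and Fgfr2 were not called, at 0.16, 0.22 and 0.32, although Vegfc and Fgfr2 passed at the deposited scaling (1.03 and 1.09).

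The Nodal, TGF-beta and BMP pathway split by branch, with 20 of 46 genes higher and 9 lower (median 0.76). On the Nodal side, the ligand Nodal fell from 9.43, 9.52 and 9.47 in ES to 4.50 and 4.78 in MEF. Its inhibitors Lefty1 and Lefty2 fell from 11.43, 11.43 and 11.48 to 5.91 on each MEF array and from 9.52, 9.43 and 9.38 to 4.83 and 4.42. Gdf3, a related ligand, fell 27.2-fold and Foxh1, the nuclear partner of its Smads (chosen after its values were seen), 10.3-fold. On the TGF-beta side, Tgfb3 rose from 5.18, 5.25 and 4.45 to 10.65 and 10.61, and Tgfb1 and Tgfb2 (chosen after their values were seen) rose 10.7-fold and 12.2-fold. The receptor Tgfbr2 rose 16.3-fold and did not differ from NPC by the rule. Inhba, the activin A subunit, read 6.12, 6.63 and 6.45 against 11.08 and 10.88, and Fst, the activin antagonist, 4.98, 5.38 and 5.71 against 9.59 and 9.71. Ligand subunit and antagonist of activin were both high on every MEF array. Smad4, Smad7, Bmpr1a and Skil were not called, at 0.34, -0.29, 0.19 and -0.49, although Smad4 passed at the deposited scaling (1.17).

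The Wnt pathway showed fewer calls, 12 of 46 higher (26.1%) and 3 lower (6.52%), against 12.2% and 12.8% of all genes. The median was 0.35, and 7 were higher with a pseudocount of 64. Wnt5a, a non-canonical ligand, read 5.43, 5.50 and 5.42 in ES and 9.52 and 9.51 in MEF, 16.7-fold higher. Rspo2 and Rspo3, secreted enhancers of Wnt signalling, read 4.10, 4.18 and 4.16 against 8.09 and 8.11, and 4.14, 4.16 and 4.45 against 7.61 and 7.73. Dkk2, a Wnt antagonist, rose 9.88-fold. Both Rspo genes and Dkk2 were near the floor on every ES array. Among receptors, Fzd1 rose 7.41-fold and Fzd5 fell 6.47-fold. Ctnnb1, the beta-catenin gene, read 12.32, 12.38 and 12.42 against 12.30 and 12.32, and Lrp6 and Fzd7 were at -0.01 and 0.04. Tcf7l1, a repressor of the pathway in ES cells, was lower at -1.47, and Sfrp1 at -1.26, and their calls ended at the deposited scaling (-0.68 and -0.46), that of Sfrp1 also with median centring (-0.78).

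Cytokine, chemokine, complement and innate sensing genes were higher in 18 of 33 members and lower in 1 (median 1.14), 17 of them also higher than in NPC. Ptgs2, the inducible prostaglandin synthase, read 6.0, 6.0 and 5.65 in ES and 11.32 and 11.45 in MEF, 45.3-fold higher. The monocyte attractants Ccl2 and Ccl7 read 5.67, 5.43 and 5.74 against 10.09 and 10.02, and 4.52, 4.58 and 4.49 against 8.93 and 8.82. Csf1, the macrophage growth factor, rose 15.0-fold and Cxcl5, a neutrophil attractant, 16.5-fold. Nfkbia and Irf1 were not called at -0.18 and -0.91. Serping1 was lower at -1.32, a call lost at the deposited scaling (-0.70) and with a pseudocount of 64 (-0.93).

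Genes of folding and secretion in the endoplasmic reticulum were called higher by limma in 21 of 34 members and lower in none (median 1.19; 0 lower at an unadjusted p under 0.05), and the count was 33 at the deposited scaling. Creb3l1, a factor that drives secretory capacity for collagen, read 6.07, 5.68 and 5.48 in ES and 9.41 and 9.25 in MEF, 3.58 higher on the log2 scale. Sec24d, a coat protein of vesicles that carry procollagen, read 7.39, 7.32 and 7.42 against 10.31 and 10.25, and Copz2 rose 5.21-fold. The general chaperones were brighter by less: Hspa5, Hsp90b1 and Canx were at 0.90, 0.77 and 0.77 and not called, and each passed at the deposited scaling (1.4, 1.43 and 1.48).

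Pluripotency factors were lower in MEF in 24 of 27 members and higher in 2 (median -3.87). Sox2 read 12.14, 12.09 and 11.91 in ES and 5.56 and 5.51 in MEF, and Sall4, a zinc finger factor, 10.94, 10.99 and 11.21 against 4.60 and 4.17. Zfp42 and Nanog fell 169-fold and 107-fold. Of the 24, 3 were also lower than in NPC, since NPC too are low for most. Myc, the growth-promoting factor, was higher in MEF, at 9.72 and 9.64 against 6.0, 6.31 and 6.14 in ES (11.5-fold), and did not differ from NPC by the rule. Stat3, which relays the LIF signal, was higher at 1.19, and its call was lost on averaging probe sets (0.38) and without probe sets of shared sequence (0.53). Zfp281 was not called at -0.77.

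Other ES-restricted genes were called lower by limma in 21 of 26 members and higher in none (median -4.67; 0 higher at an unadjusted p under 0.05). Dppa5a, an RNA-binding protein gene, read 13.35, 13.40 and 13.41 in ES and 5.16 and 5.38 in MEF, and L1td1, derived from a retrotransposon, 11.66, 11.64 and 11.69 against 4.31 and 4.62. Fbxo15, a target of Oct4 and Sox2, fell 127-fold, and Upp1, a uridine phosphorylase, 76.6-fold. Of the members not called, Pramel1, Pramel6 and Calb2 were at 5.48 or below on every ES and MEF array.

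Epithelial adhesion, junction and keratin genes were lower in 30 of 41 members and higher in 2 (median -2.17). Cdh1, the epithelial cadherin, read 11.21, 11.01 and 10.95 in ES and 5.28 and 5.03 in MEF, 59.7-fold lower, and Epcam, an adhesion protein of epithelia, 10.64, 10.72 and 10.73 against 4.17 and 4.11. Cldn7, of tight junctions, fell 24.1-fold, and Ap1m2, a sorting adaptor of epithelia, and Spint2, a protease inhibitor, fell 22.2-fold and 21.1-fold. Not every junction gene moved: Tjp1, Pkp2 and Jup, which also serve junctions of other cells, were at -0.27, -0.23 and 0.00, with Tjp1 at 10.12 to 10.24 in ES and 9.88 and 9.92 in MEF. Pkp1, a desmosome plaque protein, and Krt19, a keratin, were higher, at 4.16-fold and 3.17-fold. Among cadherins of mesenchyme and other cells, limma called 9 of 17 higher and none lower (median 1.22; 0 lower at an unadjusted p under 0.05). Cdh2, the neural and mesenchymal cadherin, read 5.57, 6.01 and 5.31 in ES and 10.05 and 10.13 in MEF, and it did not differ from NPC by the rule, unlike Cdh11. Pcdh18 and Pcdh19 rose 21.6-fold and 18.9-fold, and Cdh15 and Cdh4 were at -0.02 and -0.06.

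**Figure D5:**
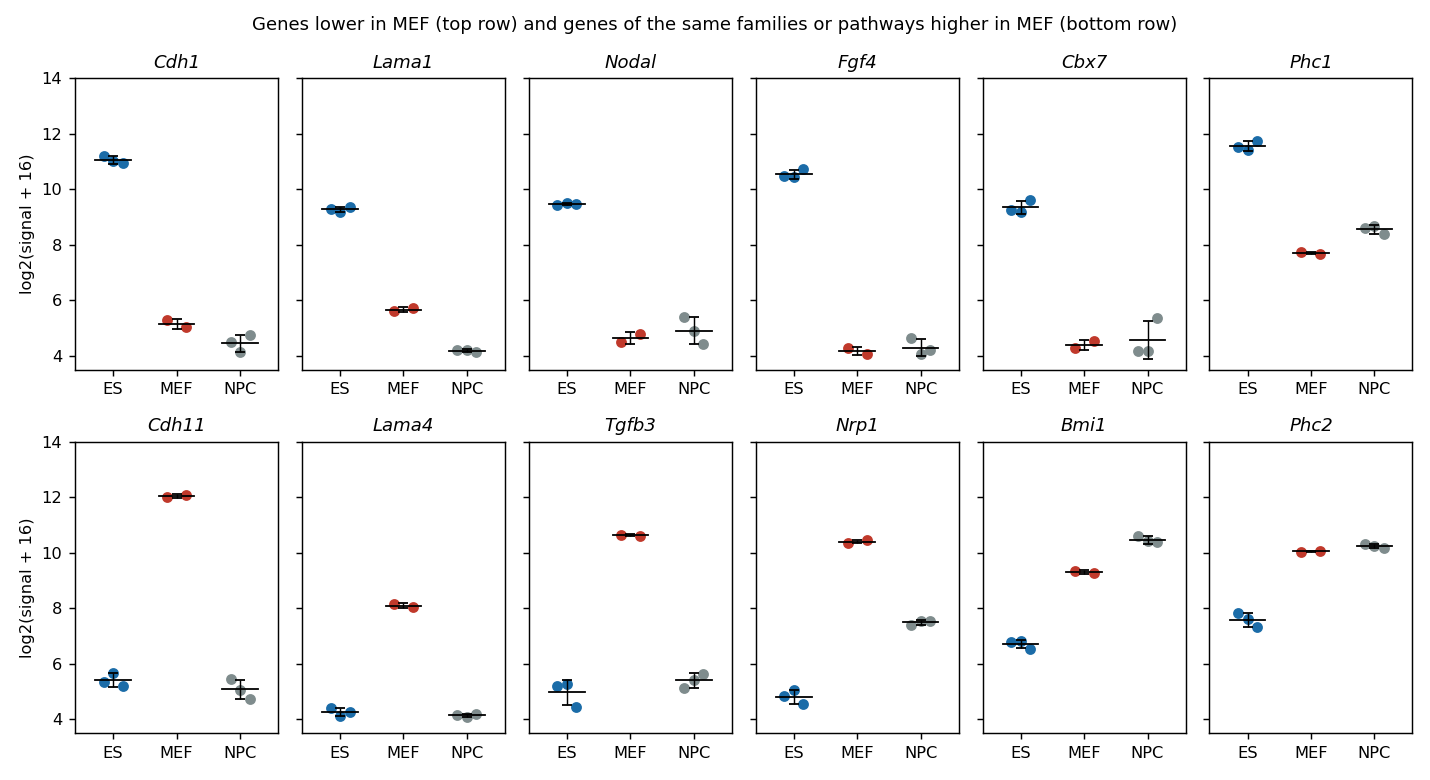
Level on each array, as log2(signal + 16), of 6 genes lower in MEF (top) and 6 genes of the same family or pathway higher in MEF (bottom), with group means and SD; genes were chosen after their values were seen. In each panel the MEF points lie apart from the ES points, while the NPC points lie near MEF in some panels (Cdh1, Phc2) and near ES in others (Cdh11, Lama4).

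Chromatin genes were lower in 15 of 37 members (40.5%) and higher in 5 (13.5%, near the 12.2% of all genes), with a median of -0.49. At the deposited scaling 9 were lower and 10 higher. Polycomb members of the group of Cbx7, Phc1, Bmi1 and Phc2 did not share 1 direction, while the called members of the complex of Ezh2 were all lower. Cbx7, a reader of the Polycomb mark, fell from 9.25, 9.17 and 9.63 in ES to 4.26 and 4.51 in MEF, and Phc1 from 11.52, 11.40 and 11.76 to 7.74 and 7.67. Bmi1 rose from 6.78, 6.80 and 6.52 to 9.35 and 9.26, and Phc2 from 7.81, 7.60 and 7.31 to 10.04 and 10.07. The paralogues Phc1 and Phc2 thus moved in opposite directions, whereas the methyltransferase paralogues Ezh1 and Ezh2 (chosen after their values were seen) were both lower, at -1.88 and -1.09. The Ezh1 call ended on averaging probe sets (-0.79) and without those of shared sequence (-0.20), and that of Ezh2 under median centring (-0.62) and the deposited scaling (-0.29). Jarid2, which guides the complex of Ezh2 in ES cells, fell 15.9-fold. In the same complex Eed, Suz12 and Mtf2 were lower, at -1.395, -1.30 and -3.31, and Phf19 was not called at -0.12. The BAF ATPase Smarca4 was at 10.37 to 10.54 in ES and 10.22 and 10.32 in MEF and not called. Its paralogue Smarca2 rose 5.81-fold, and Smarcd3, an accessory subunit, 2.99-fold. The subunits Smarcd1 and Arid1a fell 2.93-fold and 2.53-fold. Tet1, which oxidises methylcytosine, read 11.38, 11.32 and 11.27 against 5.26 and 5.19.

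DNA repair and checkpoint genes were called lower by limma in 21 of 29 members and higher in none (median -1.60; 0 higher at an unadjusted p under 0.05), with 13 lower at the deposited scaling. Msh6, of mismatch repair, read 11.79, 11.68 and 11.68 in ES and 8.30 and 8.41 in MEF, 10.3-fold lower. Xrcc5, the Ku80 subunit of end joining, read 10.08, 9.97 and 10.05 against 7.05 and 6.96, and Brca2, of homologous recombination, fell 5.71-fold. Ung, which removes uracil from DNA, fell 5.13-fold, and Rad54b 4.93-fold. These 5 kept their calls under all 3 other scalings. Only 1 of the 21 was lower than in NPC as well. Apex1 and Fanca were not called, at -0.87 and -0.97. Apex1 passed on averaging probe sets (-1.005) and without those of shared sequence (-1.06), and Fanca with a pseudocount of 1 (-1.06).

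DNA replication and G1/S genes were lower in 21 of 37 members and higher in 1 (median -1.11), but limma called 10 lower under median centring and 7 at the deposited scaling. Pold1, a subunit of the polymerase delta, read 9.86, 9.79 and 9.68 in ES and 7.54 and 7.43 in MEF. Mcm10 and Gins1, of the replication fork, fell 4.62-fold and 4.43-fold, and Rpa2 and Rfc5 4.06-fold and 4.05-fold. These 5 were called under all 3 other scalings too. Pcna and Rrm2 were not called at -0.95 and 0.09 (Pcna was without MEF 1, at -1.01), and Ccne2, a cyclin that starts S phase, was higher at 3.40-fold. D cyclins, CDK inhibitors and p53 targets were higher in 7 of 28 members (25%) and lower in 4 (14.3%), with a median of 0.16. Over all genes the shares were 12.2% and 12.8%, so the lower share was near that of all genes. At the deposited scaling 11 were higher. Ccnd2 read 7.03, 7.19 and 7.08 in ES and 11.95 and 12.03 in MEF, and the inhibitors Cdkn2b and Cdkn2c rose 9.10-fold and 6.65-fold. Cdk4 and Ccnd3 were at -0.16 and -0.17 and not called. Perp, a p53 target of epithelia, fell 3.79-fold.

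S100 and annexin genes, which bind calcium, were higher in 12 of 17 members and lower in 1 (median 2.37). When probe sets of shared sequence were left out, 6 were higher, but S100a6, S100a8 and Anxa5 then had no probe set left. Anxa1 read 9.12, 9.23 and 9.18 in ES and 13.18 and 13.11 in MEF, and Anxa5, which binds exposed phosphatidylserine, rose 17.8-fold. S100a6 read 9.44, 9.25 and 9.10 against 12.89 and 12.90, and S100a4 rose 25.5-fold, with an SE of 0.90 that was 0.21 without NPC 1. Of 19 fibroblast surface markers, 14 were higher and 2 lower (median 2.96). Cd44, the hyaluronan receptor, read 6.55, 6.59 and 6.34 against a MEF mean of 11.94, and Vcam1 and Cd248 rose 33.7-fold and 17.1-fold. Icam1 fell from 8.43, 8.48 and 8.52 to 5.49 on each MEF array, the opposite direction to Vcam1. Cd9 was lower at -1.49, and its call ended under median centring (-1.0) and the deposited scaling (-0.68).

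Some contractile and matrix genes that were higher in MEF were already above the NPC level on the ES arrays. Acta2, smooth muscle actin, read 10.22, 10.23 and 10.38 in ES, 13.37 on each MEF array and 6.23, 5.78 and 5.82 in NPC. Tagln read 9.40, 9.65 and 9.42 in ES, 12.60 and 12.63 in MEF, and 4.10, 4.07 and 4.43 in NPC. Ccn2, a matricellular target of mechanical signals, read 9.83, 9.97 and 9.69, then 13.21 and 13.15, then 4.91, 4.41 and 4.03. Timp1 read 9.47, 9.40 and 9.71 in ES and 5.46, 4.71 and 4.81 in NPC. In each the ES arrays lay between NPC and MEF (genes chosen after their values were seen). Other matrix and contractile genes lay in this order too, among them Col1a1 (means of 4.15 in NPC and 6.15 in ES), Bgn (4.58 and 7.60) and Tpm2 (4.99 and 9.13). Some did not, also chosen after their values were seen. Col3a1 was at 5.59 to 5.76 in ES and 4.35 to 5.82 in NPC, Fbln5 at 4.30 to 4.81 and 4.40 to 4.84, and Adam12 at 4.69 to 4.82 and 10.78 to 10.92. How many genes lay in either order was not counted. Cald1, a regulator of actin filaments, was at 9.69 to 9.92 in ES and 9.90 to 10.38 in NPC. The summed signal of the 19 fibroblast surface markers was taken on the linear scale with the pseudocount included. It was 5809 to 6185 on the ES arrays, 5200 to 7614 on the NPC arrays and 20070 to 20540 on the MEF arrays. The ES and NPC ranges overlapped. The brightest member was Cd9 in ES (11.67 to 11.89 on the log2 scale), a gene lower in MEF, and Cd24a in NPC (11.20 to 11.60). The sum therefore cannot show a part of fibroblasts in either. The ES cells had been grown on feeder fibroblasts before their last passages, and the part of such cells in these values was not tested.

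Markers of other cell types were read in the same way. Of 25 macrophage and blood cell markers, 17 were higher in MEF and 2 lower (median 1.85), 17 of them above NPC too, with 11 higher at a pseudocount of 64, and the summed signal was 2996 to 3027 in MEF against 1172 to 1203 in ES. Lyz2, lysozyme, read 5.16, 4.87 and 4.97 in ES and 8.94 and 9.03 in MEF, and C1qb and C1qc, complement chains made by macrophages, rose 10.9-fold and 7.29-fold. Ctss, a lysosomal protease of antigen-presenting cells, read 4.81, 4.90 and 5.10 against 8.31 and 8.39. Every MEF array was above every ES array in these 4. The lineage factor Spi1 and the integrin Itgam were not called at 0.40 and 0.26, with MEF arrays at 5.64 or below. The receptor Csf1r, at 0.71, was not called but was called without probe sets of shared sequence (2.78). Cd68 was lower at -1.31, and that call ended under median centring (-0.92) and the deposited scaling (-0.60). The other lower marker, Laptm5, fell by more, from 8.45, 8.31 and 8.22 in ES to 6.78 and 6.76 in MEF (-1.56). The part of macrophages in the MEF values of chemokine and matrix genes was not tested.

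Of 18 muscle markers, 7 were higher and 1 lower, with Tnni1 and Actc1, of the sarcomere, 6.48-fold and 5.03-fold higher. The count of higher markers was 3 without probe sets of shared sequence, where Tnni1, Myl1 and Acta1 had no probe set left. Endothelial markers were higher in 2 of 15 (13.3%, near the 12.2% of all genes) and lower in 6 (40%, with 2 lower at a pseudocount of 64). Flt1, a VEGF receptor, was 7.94-fold higher and Pecam1, which ES cells also express, 6.93-fold lower. Fat cell markers were higher in 7 of 9 (4 with a pseudocount of 64), among them the regulators Cebpb and Cebpd at 8.60-fold and 4.04-fold and the lipase Lpl at 4.54-fold. The regulators Pparg and Cebpa rose 2.26-fold and 3.82-fold and Cd36, a fatty acid transporter, 2.95-fold, calls that ended with a pseudocount of 64 (0.45, 0.96 and 0.60) and, for Cd36, on averaging probe sets (0.96). Of the genes of mature fat cells, the fatty acid carrier Fabp4 read 4.35, 4.85 and 4.80 in ES and 7.36 and 7.31 in MEF, 6.36-fold higher, but its difference was -0.08 without probe sets of shared sequence. Adipoq and Cidec were not called and were at 4.76 or below on every array. Cartilage and bone markers gave 1 higher and 1 lower of 12 (8.33% each, against 12.2% and 12.8% of all genes). Alpl, the alkaline phosphatase that ES cells share, fell from 8.89, 8.87 and 8.90 to 4.96 and 5.27. Neural markers gave 3 higher (18.8%) and 4 lower (25%) of 16, with Olig1 36.8-fold lower and Gap43 4.04-fold higher. Of 7 erythroid markers, none was called by limma at this threshold, with 0 higher and 0 lower at an unadjusted p under 0.05.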

How the data were processed

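Affymetrix array signals were the authors' deposited intensity values on a linear scale, made with GCOS 1.4 per the submitters' processing notes; further settings are not given in the sources used here. From 45101 probe sets, 64 controls were removed, 34945 with 1 gene symbol in the platform annotation were kept, and 932 with several and 9160 with none were left out. Values were quantile normalized as log2(value + 16), and each gene was read from its probe set with the highest mean over all arrays. All 8 arrays entered 1 limma fit (limma 3.58.1, R 4.3.3) with a variance trend and 5 residual degrees of freedom. A gene was called at a Benjamini-Hochberg adjusted p under 0.05 over all genes and a log2 difference of at least 1. The script was tested on simulated data. Alternatives covered scaling, pseudocount, dim genes, probe sets, variance model, samples, threshold and left-out arrays. Probe sets of shared sequence were those with an identifier ending in _a_at, _s_at or _x_at. The ending _a_at marks sequence shared by transcripts of 1 gene. A call lost without such probe sets is thus no sign of signal from another gene. Leaving them out kept 16591 genes, and members without another probe set dropped out of the list counts.

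Named were the 5 markers, the 15 largest rises and falls whose arrays did not overlap, every Hox gene, all members of lists with at most 12 measured genes, and in larger lists the 5 largest called rises and falls and up to 4 uncalled genes of highest level. Not every gene the rule allows is printed. The comparison, lists and genes were chosen with earlier results of these data known. The depth of an array is unknown; the number of arrays limits precision. Promoter windows were the 250 bases before each start in RefSeq (GRCm38.p6), and genes without an entry were left out.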

Additional observations from a re-analysis of the deposited data

How the results depend on the processing

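Beside the 4554 calls given, the deposited scaling made 5467 (4338 higher, 1129 lower; 3356 of the 4554 among them) and median centring 4787 (3114 and 1673; 3789 of the 4554), so the split of directions (48.9%, 79.3% and 65.1% higher; 47.3% with trimmed mean scaling) depends on scaling. A pseudocount of 64 gave 2937 calls (1465 higher, 1472 lower). With no minimum difference there were 8447 calls (3843 higher, 4604 lower), and with a minimum log2 difference of 2 there were 1560 (879 higher, 681 lower). Leaving out 1 array gave 4392 to 4634 calls, 2127 to 2274 higher and 2256 to 2360 lower. With the replicate number as a block there were 4564 calls (2216 higher, 2348 lower). Deviations of ES and MEF arrays from their group means correlated at -0.0167 to 0.0167. Since the deviations of both MEF arrays are opposite by construction, this cannot show whether the replicate numbers pair the samples. Without probe sets of shared sequence, Hoxa10 turned from 3.71 to -0.058 and Fabp4 from 2.67 to -0.079, and the cause was not tested. The Fabp4 probe set left out ended in _a_at, so this change is no sign of signal from another gene. Of 1520 counts over lists and alternatives, 1409 stayed within 1.5 times the count given. Signal near the bottom of the scale limits the Hox, protease and macrophage genes.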

Other observations

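Enzymes of one-carbon and glycine metabolism, which feed nucleotide synthesis and methylation, were lower in 5 of 16 members and higher in 1 (median -0.28), with 3 lower and 6 higher at the deposited scaling. Gldc, which cleaves glycine in mitochondria, read 9.60, 9.53 and 9.62 in ES and 4.23 and 4.55 in MEF, 36.6-fold lower, and was lower than in NPC too. Shmt1 and Mthfd1 fell 4.82-fold and 4.61-fold. Aldh1l2, a mitochondrial folate enzyme, went the other way, from 5.04, 5.32 and 5.48 to 9.44 and 9.38, and did not differ from NPC by the rule. Among 33 antioxidant and detoxification genes, 6 were higher (18.2%) and 8 lower (24.2%), against 12.2% and 12.8% of all genes. The counts were 13 and 2 at the deposited scaling, and 5 were lower without ES 1, ES 2 or MEF 1. Gsta4, a glutathione transferase, read 12.28, 12.29 and 12.29 in ES and 7.71 and 7.69 in MEF, and Mt2, a metallothionein, fell 8.71-fold, while Gpx8, a peroxidase of the endoplasmic reticulum, and Gsto1 rose 11.9-fold and 5.46-fold.

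Oncofetal and imprinted genes were higher in 10 of 31 members (32.3%) and lower in 4 (12.9%, near the 12.8% of all genes). When probe sets of shared sequence were left out, 5 of the members that kept a probe set were higher. Hmga2, an architectural chromatin protein of growing embryos, read 6.78, 6.88 and 7.05 in ES and 11.89 and 11.96 in MEF. Igf2bp1, an RNA-binding protein, fell 3.65-fold and was higher in MEF than in NPC. Lysosomal genes gave 7 of 29 higher (15 at the deposited scaling) and 2 lower, led after Ctss by Ctsk and Gusb at 7.59-fold and 3.96-fold.

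Genes called in the same direction lay side by side in 29 runs of at least 4 measured neighbours, 12 higher and 17 lower in MEF, among 18145 genes placed on the assembly of the annotation table. The longest held 6 genes, and 4 runs were Hox clusters. Slc2a3, Nanog, Dppa3 and Gdf3 formed a run that was lower by -6.74 to -4.76. Cxcl3, Pf4, Ppbp and Cxcl5, chemokine genes next to Rassf6, formed a run that was higher by 1.10 to 4.27 with it. How often such runs arise by position alone was not tested.

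For 19 genes, probe sets were called in opposite directions, so that the value of the brightest probe set does not stand for the whole gene. The Y-linked Kdm5d read 4.41, 4.40 and 4.02 in ES and 6.99 on each MEF array, 6.55-fold higher. Of the other measured Y-linked genes, Uty read 6.12, 5.90 and 5.98 against 6.98 and 7.15, a 2.10-fold rise whose call ended with a pseudocount of 64 (0.70), on averaging probe sets (0.63) and without MEF 2 (0.96), and Eif2s3y was not called at -0.05.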
